A study of Chlorocebus aethiops with 24 samples.

Results

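Ion channel genes were read from the hippocampal expression table of vervet monkeys exposed to alcohol before birth, which the study uses to model fetal alcohol spectrum disorder (FASD). The genes were chosen by name, as the rows of the table whose annotation gives 1 gene symbol beginning as those of potassium (KCN), sodium (SCN), calcium (CACN), hyperpolarization-activated (HCN) or chloride (CLCN) channels, or of the TRPC, TRPM and TRPV families of transient receptor potential channels. The rule used no measured value, though it was set with earlier results of these data known. It gave 65 of the 11512 rows, for 64 genes, because KCNAB2 has 2 rows. Of these rows, 42 belonged to potassium channels, 7 to sodium channels, 9 to calcium channels and 7 to cation channels of mixed selectivity (HCN3 and 6 TRP genes), and no CLCN row met the rule.

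Channels of these families set the electrical behaviour of nerve cells. Sodium channels carry the upstroke of the action potential, potassium channels repolarize the membrane and hold it at rest, and calcium channels link depolarization to transmitter release. Auxiliary subunits change how many pore-forming subunits reach the membrane and how these open. In the hippocampus the balance of these currents governs the firing of pyramidal and granule cells, while inward rectifier potassium channels of glia take up the potassium that firing releases.

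The tissue was the left hippocampus of 22 male vervet monkeys bred in captivity on St. Kitts, with 1 Affymetrix Rhesus Macaque array per animal. The 4 groups were FASD at 2 years of age (n = 5), control at 2 years (n = 6), FASD at 5 months (n = 5) and control at 5 months (n = 6). All dams had been selected as alcohol preferring. In the last part of pregnancy the dams of FASD animals drank an ethanol solution and those of controls an isocaloric sucrose solution, so the dams' preference was shared by all groups. The label FASD stands for the exposure. Values of single animals are given in the order of their numbers, which run 1, 2, 3, 4 and 6 for FASD at 2 years, 2 to 6 for FASD at 5 months and 1 to 6 for each control group. Values are log2 expression intensities, on which a difference of 1 is a doubling. The probes were made for another species, so an intensity reflects probe match as well as abundance. Where rows are ordered or split by mean intensity below, this orders probe signals and not transcript levels.

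The 3 differences of group means below were fitted to every row with limma: alcohol (FASD minus control, averaged over both ages), age (2 years minus 5 months, averaged over both exposures) and their interaction, which subtracts the alcohol difference of the younger animals from that of the older ones. The Benjamini-Hochberg adjustment was made over all 11512 rows. The tissue is a mixture of cell types, so fewer cells of a type and less RNA per cell cannot be told apart. The study states that its earlier anatomical work found a marked loss of CA1 hippocampal neurons at 2 years after such exposure. Of the 12 cell type lists, 11 had measured genes and the blood list had none, so blood was not assessed. FASD animal 2 at 5 months stood apart: it had the highest mean level of myelin (0.59 above the mean of all arrays), microglial (0.36) and mural cell and fibroblast genes (0.74), and was the highest or lowest of the 22 animals in 22 of the 65 channel rows (33.8%) and in 29.3% of all rows. A discarded FASD array of that age has the same replicate number in its title but another number in its source name. The study's supplement gives the excluded array of that age a number that none of the FASD arrays used here at that age has. The title and the supplement therefore disagree. The values used here are those of the array not marked as discarded. On this array the pyramidal and granule neuron markers averaged -0.40 relative to all arrays, the pan-neuronal markers 0.10 and the interneuron markers 0.08. Over all arrays, 3 of 4 pyramidal and granule neuron rows were lower with alcohol (median difference -0.0749) and 4 of 5 pan-neuronal rows higher (0.0567). None of these had an unadjusted p under 0.05 (limma). The part of neuron number in the channel values was not tested.

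No channel gene differed between FASD and control animals, or between ages, at an adjusted p under 0.05. The medians of the class lay near 0. The median alcohol difference was 0.0203 on the log2 scale over the 65 rows and -0.00693 over all rows, and 98.5% of channel rows differed by less than 0.25, against 98.1% of all rows. For 64 of the 65 rows the 95% confidence interval of the alcohol difference lay within 0.5 on either side of 0, and TRPM7 was the exception. For age the median was 0.0175 over the channel rows and 0.00282 over all rows, with 95.4% and 96.8% of rows under 0.25.

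**Figure D1:**
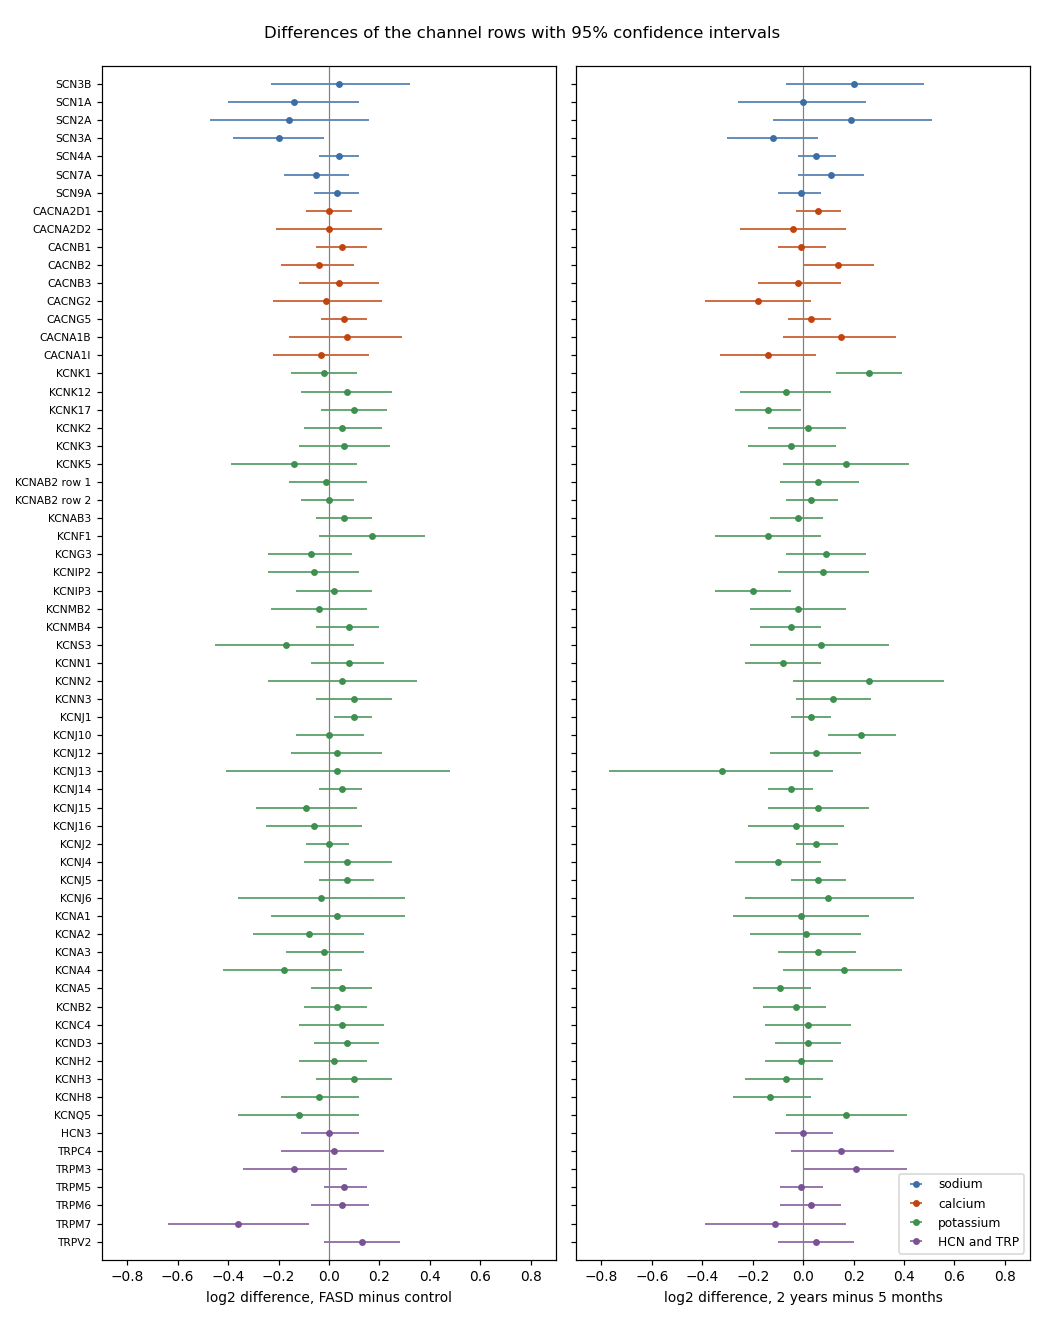
Log2 differences (points) with 95% confidence intervals (lines) from limma for each of the 65 channel rows, FASD minus control on the left and 2 years minus 5 months on the right, grouped by ion. Alcohol differences ran from -0.36 (TRPM7) to 0.17 (KCNF1) and age differences from -0.32 (KCNJ13) to 0.26 (KCNK1), and most intervals crossed 0.

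Alcohol exposure was set first against each ion class. Sodium channel rows had a median alcohol difference of -0.0489, with 4 of 7 rows lower in FASD, and the 6 pore-forming genes alone a median of -0.0952. Potassium channel rows had a median of 0.0305 (25 of 42 higher), calcium channel rows -0.000802 (4 of 9 higher) and the HCN and TRP rows 0.016 (5 of 7 higher). All 3 calcium-activated potassium channel genes, KCNN1, KCNN2 and KCNN3, which follow spikes with a hyperpolarization, had positive differences between 0.05 and 0.10, and none of them reached an unadjusted p under 0.05.

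At an unadjusted p under 0.05, 3 of the 65 rows (4.62%) differed with alcohol, against 8.44% of all rows. TRPM7 and SCN3A were lower in FASD animals and KCNJ1 was higher. In limma the lowest adjusted p among the channel rows was 0.579. The two-way analysis of variance that the study's methods name gave the same count of 3 at an unadjusted p under 0.05. It gave 0 after the Benjamini-Hochberg adjustment used here. The study instead converted p to q values, separately in a candidate and a general pool of genes, and that step was not repeated.

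TRPM7, a cation channel fused to a protein kinase that passes magnesium and calcium, had the largest alcohol difference of the channel rows. At 2 years its log2 intensity was 6.52, 5.92, 7.22, 7.10 and 6.85 in FASD animals, against a lowest of 6.77, a median of 7.12 and a highest of 7.50 in controls. In the animals of 5 months it was 6.25, 7.03, 7.10, 6.94 and 6.99 with FASD, against a lowest of 6.90, a median of 7.26 and a highest of 7.32 in controls. FASD animal 2 was the lowest at each age, these being different monkeys, and the groups overlapped at both ages. Pyramidal and granule neuron markers averaged -0.48 in that animal at 2 years and -0.40 at 5 months, each the lowest of its group. Pan-neuronal (0.08 and 0.10) and interneuron markers (0.28 and 0.08) were not low there. The part of these markers in the TRPM7 values was not tested. In all, 4 of 5 FASD animals at 2 years and 5 of 5 at 5 months were below the mean of the controls of their age. The difference was -0.36 (SE 0.14, 95% confidence interval -0.64 to -0.08) and the fold 0.780 (limma, unadjusted p = 0.0145, adjusted p = 0.579). An exact permutation test of the animals within age gave p = 0.0166 (two-sided). Without FASD animal 2 at 5 months the difference was -0.28 (limma, unadjusted p = 0.0373), and without the FASD animal 2 at 2 years -0.26 (unadjusted p = 0.0342). When the 3 arrays of lowest weight were left out together it was -0.21 (unadjusted p = 0.0487).

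SCN3A encodes a sodium channel pore known for its high expression in the developing brain. Its log2 intensity at 2 years was 8.33, 8.21, 8.50, 8.53 and 8.65 in FASD animals, against a lowest of 8.25, a median of 8.76 and a highest of 8.93 in controls. The FASD animals of 5 months had 8.45, 8.50, 8.80, 8.44 and 8.64, against a lowest of 8.57, a median of 8.72 and a highest of 9.02 in controls. The groups overlapped at each age, with 5 of 5 FASD animals below the control mean at 2 years and 4 of 5 at 5 months. The difference was nearly the same at 2 years (-0.21) and at 5 months (-0.20). It averaged -0.20 (SE 0.09; unadjusted p = 0.0279, adjusted p = 0.580, limma), and an exact permutation test within age gave p = 0.0354 (two-sided). The unadjusted p was above 0.05, at most 0.0597, when control animal 4, 5 or 6 or FASD animal 2 at 2 years, or control animal 1 or FASD animal 5 at 5 months, was left out, and also after centring (0.0504) or quantile normalization (0.0599) of the arrays. Of the other brain sodium channel pores, SCN1A had a difference of -0.14 and SCN2A one of -0.16, with intervals that crossed 0.

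KCNJ1, an inward rectifier best known from the kidney, was higher in FASD animals by a small margin. The probe signal was weak, with a mean log2 intensity of 4.68 against a median of 8.01 over all rows. Its log2 intensity at 2 years was 4.74, 4.71, 4.69, 4.82 and 4.73 in FASD animals, against a lowest of 4.61, a median of 4.67 and a highest of 4.69 in controls. FASD animals of 5 months had 4.87, 4.66, 4.70, 4.71 and 4.68, against a lowest of 4.54, a median of 4.58 and a highest of 4.75 in controls. All FASD animals lay above the control mean of their age, 5 of 5 at each, but the ranges met at 2 years and overlapped at 5 months. The difference was 0.10 (SE 0.04; unadjusted p = 0.0175, adjusted p = 0.579, limma), with p = 0.00141 in an exact permutation test within age (two-sided). It was 0.08 without FASD animal 2 at 5 months (unadjusted p = 0.0383).

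**Figure D2:**
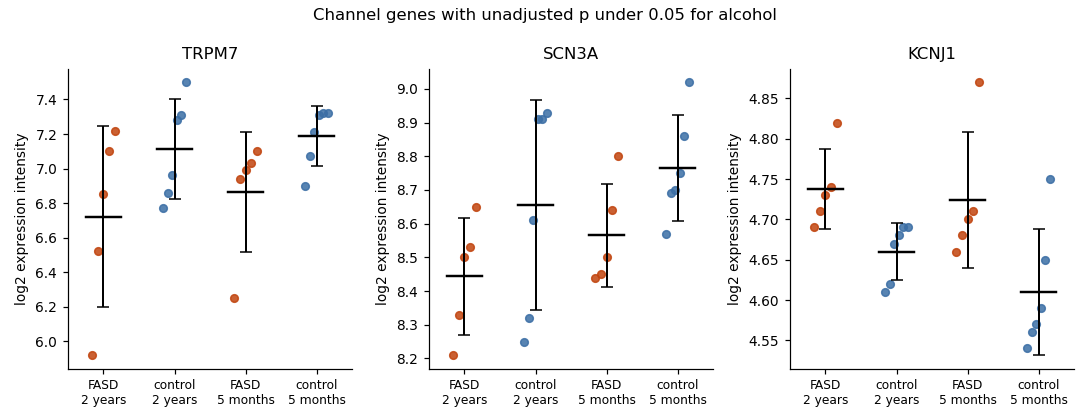
Log2 expression intensity of TRPM7, SCN3A and KCNJ1 in each animal (points) by group, with group means (bars) and SD (whiskers); n is 5 in each FASD group and 6 in each control group. FASD means were lower for TRPM7 (6.72 against 7.11 at 2 years) and SCN3A (8.45 against 8.65) and higher for KCNJ1 (4.74 against 4.66), with overlapping or touching groups.

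Next in order of p for alcohol came TRPV2, a calcium-permeable TRP channel, with 0.13 (SE 0.07; unadjusted p = 0.0769), and KCNF1, an electrically silent potassium channel subunit that modifies others, with 0.17 (SE 0.10; unadjusted p = 0.111). The difference of TRPV2 was 0.26 at 2 years and 0.01 at 5 months. Its interaction, 0.25 (SE 0.14), had an unadjusted p of 0.0956 (limma), so a change with age is not shown. An exact permutation test at 2 years gave p = 0.0844 (two-sided). At 2 years its log2 intensity was 7.47, 7.45, 7.67, 7.56 and 7.44 in FASD animals, against a lowest of 6.81, a median of 7.29 and a highest of 7.62 in controls. At 5 months it was between 7.22 and 7.46 in FASD animals and between 7.23 and 7.46 in controls. KCNF1 was 9.47, 9.77, 9.76, 9.49 and 9.09 in FASD animals at 2 years, against a lowest of 8.88, a median of 9.31 and a highest of 9.88 in controls. For KCNF1 the spread of the controls covered all 5 FASD animals at 2 years. At 5 months KCNF1 was 9.88, 9.61, 9.44, 9.87 and 9.47 in FASD animals, against a lowest of 9.32, a median of 9.49 and a highest of 9.68 in controls, and the groups overlapped there too.

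Within each age the counts were also small. At 2 years 5 of the 65 rows (7.69%) had an unadjusted p under 0.05, against 6.05% of all rows: TRPV2 (0.26), KCNJ5 (0.19) and CACNG5 (0.13) were higher in FASD, and KCNQ5 (-0.36) and KCNJ15 (-0.35) lower. At 5 months 2 rows (3.08%) did so, against 4.83% of all rows, and both were higher in FASD: KCNK17 (0.24) and KCNJ1 (0.12). None reached an adjusted p under 0.05. CACNG5, which encodes a gamma subunit related to the partners of AMPA receptors, and KCNQ5, which contributes to the M current that restrains repetitive firing, were singled out after their values were seen. Single arrays decided several of these values. TRPV2 at 2 years was 0.17 without control animal 6 (unadjusted p = 0.0601) and 0.22 without FASD animal 3 (0.0546), and CACNG5 passed 0.05 in only 7 of the 22 fits that left out 1 array, with p up to 0.129. KCNJ1 at 5 months was 0.08 (unadjusted p = 0.137) without FASD animal 2, and p was also above 0.05 without FASD animal 5 or control animal 1, 2, 4 or 5.

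KCNQ5 differed among controls as much as between groups. Its log2 intensity at 2 years was 5.57, 5.01, 5.35, 5.45 and 5.45 in FASD animals and 5.48, 4.87, 6.05, 6.02, 6.03 and 5.89 in controls. Of the controls, 4 lay above every FASD animal and 1, control animal 2, was the lowest of all. At 5 months KCNQ5 was between 5.07 and 5.65 in FASD animals and between 5.20 and 5.46 in controls. The alcohol difference at 2 years was -0.36 (SE 0.16; unadjusted p = 0.0401, adjusted p = 0.793, limma), with p = 0.173 in an exact permutation test (two-sided; the smallest p it allows is 0.00216). It was -0.53 without control animal 2 and lost an unadjusted p under 0.05 without control animal 3, 4, 5 or 6 or FASD animal 2 or 3 at 2 years, with p up to 0.128. In controls the age difference of KCNQ5 was 0.40 (SE 0.16; unadjusted p = 0.0171, adjusted p = 0.712, limma), and an exact permutation test gave p = 0.0606 (two-sided), above 0.05. When the 3 arrays of lowest weight were left out together it was the lone channel row to reach an adjusted p under 0.05 for age in controls (0.0487), a choice made after the data were seen.

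Age gave the lowest p values of the channel rows. At an unadjusted p under 0.05, 4 of the 65 rows (6.15%) differed with age, against 9.57% of all rows. KCNK1 and KCNJ10 were higher at 2 years, and KCNIP3 and KCNK17 were lower. At an adjusted p under 0.05 limma called 0.139% of all rows (16) and 0 channel rows, and the two-way analysis of variance likewise gave 4 channel rows before adjustment and 0 after it. All 4 belong to potassium channels, in which 23 of 42 rows had a positive age difference.

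KCNK1 encodes a 2-pore potassium channel of the background type, which holds the membrane at rest. Its log2 intensity in FASD animals was 10.04, 9.68, 10.03, 9.69 and 10.00 at 2 years, against 9.76, 9.61, 9.53, 9.58 and 9.48 at 5 months. In controls the lowest, median and highest were 9.62, 9.90 and 9.98 at 2 years, against 9.42, 9.66 and 9.84 at 5 months. The ages overlapped in both exposures, through FASD animals 2 and 4 and control animals 3 and 6 at 2 years. The age difference was 0.26 (SE 0.06, 95% confidence interval 0.13 to 0.39) and the fold 1.20 (limma, unadjusted p = 0.000401, adjusted p = 0.104). It was 0.30 in FASD animals and 0.22 in controls, and an exact permutation test within exposure gave p = 0.000799 (two-sided). The adjusted p was 0.0451 without FASD animal 4 at 2 years and 0.0136 when arrays were weighted by their quality, and at least 0.0521 under all other alternatives run. In controls alone the unadjusted p, 0.0159, became 0.0506 without control animal 4 at 5 months.

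KCNJ10 encodes the inward rectifier of astrocytes and oligodendrocytes that clears potassium around active neurons. Its log2 intensity in FASD animals was 10.22, 10.15, 10.08, 9.71 and 9.92 at 2 years, against 9.76, 9.90, 9.65, 9.67 and 9.66 at 5 months. In controls the lowest, median and highest were 9.73, 10.00 and 10.17 at 2 years, against 9.65, 9.79 and 9.91 at 5 months. The upper animals at 2 years stood above all animals at 5 months in each exposure, while FASD animal 4 and control animals 4 and 5 at 2 years lay within the 5-month range. The difference was 0.23 (SE 0.07; unadjusted p = 0.00170, adjusted p = 0.187, limma), and an exact permutation test within exposure gave p = 0.00336 (two-sided). Of the 8 astrocyte marker rows 3 were higher and 5 lower at 2 years, with a median difference of -0.0129. The mean level of these rows, relative to all arrays, was between -0.15 and 0.19 in FASD animals and between -0.09 and 0.21 in controls at 2 years, against between -0.15 and 0.09 in FASD animals and between -0.11 and 0.16 in controls at 5 months. Among them GLUL had an unadjusted p under 0.05 for age (0.09, unadjusted p = 0.0496, limma). Of the 6 oligodendrocyte and myelin rows 3 were higher and 3 lower at 2 years. MAL (-0.34, unadjusted p = 0.00231, limma) and UGT8 (-0.25, unadjusted p = 0.0221) were lower, and MYRF (0.15, unadjusted p = 0.0239) was higher. None of the 6 had an adjusted p under 0.05. The part of these markers in the KCNJ10 result was not tested.

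KCNIP3 encodes a calcium-binding protein that partners potassium channels of the A type and also acts on transcription. Its log2 intensity in FASD animals was 7.45, 7.40, 7.29, 7.13 and 7.19 at 2 years, against 7.76, 7.61, 7.27, 7.41 and 7.40 at 5 months. In controls the lowest, median and highest were 7.11, 7.21 and 7.60 at 2 years, against 7.21, 7.44 and 7.84 at 5 months. All 5 FASD animals and 5 of 6 controls at 2 years lay below the 5-month mean of their exposure, and the ages overlapped. The difference was -0.20 in FASD animals and -0.20 in controls, with an average of -0.20 (SE 0.07; unadjusted p = 0.0132, adjusted p = 0.361, limma) and p = 0.0133 in an exact permutation test within exposure (two-sided). The related KCNIP2 had an age difference of 0.08 (unadjusted p = 0.371).

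**Figure D3:**
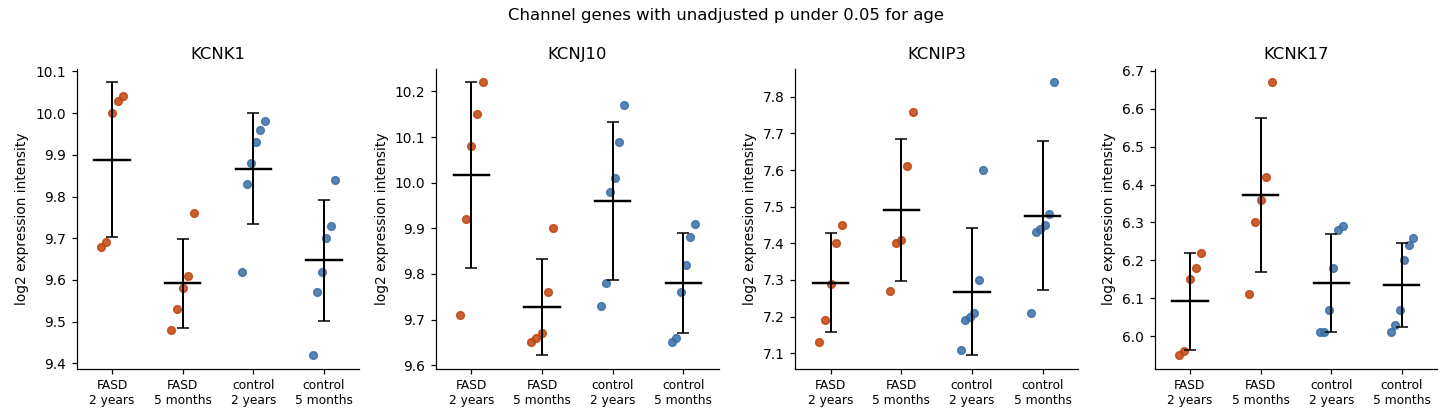
Log2 expression intensity of KCNK1, KCNJ10, KCNIP3 and KCNK17 in each animal (points) by group, each exposure with 2 years to the left of 5 months, with group means (bars) and SD (whiskers); n is 5 in each FASD group and 6 in each control group. KCNK1 and KCNJ10 had higher and KCNIP3 lower means at 2 years in both exposures, and KCNK17 had a lower mean at 2 years in FASD animals (6.09 against 6.38) and nearly equal means in controls (6.14 against 6.13).

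TRPM3, a heat and steroid activated cation channel, came next for age with 0.21 (SE 0.10; unadjusted p = 0.0521, limma). In FASD animals it was 5.96, 5.67, 5.88, 6.12 and 6.28 at 2 years, against 5.67, 5.99, 5.91, 5.75 and 6.07 at 5 months. In controls its lowest, median and highest were 5.65, 6.24 and 6.58 at 2 years, against 5.63, 5.86 and 6.31 at 5 months. The ages overlapped in both exposures. The difference was 0.10 in FASD animals and 0.31 in controls (unadjusted p = 0.0325), and the p in controls was above 0.05, up to 0.0950, without control animal 5 or 6 at 2 years or control animal 2, 3 or 4 at 5 months.

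Within exposures, 4 of the 65 rows (6.15%) had an unadjusted p under 0.05 for age in FASD animals, against 6.99% of all rows, and 4 (6.15%) in controls, against 5.55% of all rows. In FASD animals KCNK1 (0.30), KCNJ10 (0.29) and KCNJ5 (0.18) were higher and KCNK17 (-0.28) lower at 2 years. In controls KCNK1 (0.22), TRPM3 (0.31), KCNQ5 (0.40) and KCNJ15 (0.32) were higher. KCNK1 was the lone gene in both sets. Adjusted p was above 0.05 for all of them.

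The interaction asks whether the alcohol difference changed with age. Its unadjusted p was under 0.05 in 3 of the 65 rows (4.62%), against 3.00% of all rows, and the adjusted p of each was near 1 (0 rows under 0.05 in limma and in the two-way analysis of variance, which also gave 3 rows before adjustment). The 3 genes were KCNJ15, KCNJ5 and KCNK17, all of potassium channels. Each had a mean log2 intensity below 7, against a median of 8.01 over all rows. The median interaction was 0.0482 over the channel rows and 0.0321 over all rows. The intervals were wide, and 37 of the 65 lay within 0.5 on either side of 0.

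KCNJ15, an inward rectifier, had the largest interaction of the channel rows. Its log2 intensity at 2 years was 5.41, 5.47, 6.09, 5.46 and 5.42 in FASD animals, against a lowest of 5.65, a median of 5.93 and a highest of 6.19 in controls. At 5 months it was 5.37, 5.82, 5.80, 5.84 and 5.99 in FASD animals, against a lowest of 5.33, a median of 5.50 and a highest of 5.95 in controls. At 2 years 4 of the 5 FASD animals were below every control, with FASD animal 3 among the upper controls, while at 5 months the groups overlapped widely. The FASD minus control difference was -0.35 (SE 0.14) at 2 years and 0.16 (SE 0.14) at 5 months, and the interaction was -0.52 (SE 0.19; unadjusted p = 0.0141, limma). It was between -0.65 and -0.46 with each array left out in turn, with p at most 0.0312. At 2 years alone an exact permutation test gave p = 0.0455 (two-sided). The age difference of KCNJ15 in controls, 0.32 (unadjusted p = 0.0225), had a p of 0.0613 without control animal 6 at 2 years and 0.0609 without control animal 4 at 5 months.

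KCNJ5, a subunit of the potassium channels opened by G proteins, was the single channel gene whose groups did not overlap. At 2 years it was 5.48, 5.55, 5.66, 5.52 and 5.51 in FASD animals, against 5.36, 5.43, 5.33, 5.35, 5.44 and 5.20 in controls. At 5 months it was 5.44, 5.14, 5.36, 5.47 and 5.40 in FASD animals, against a lowest of 5.15, a median of 5.42 and a highest of 5.56 in controls. All FASD animals at 2 years thus stood above all controls of that age, as in 1.54% of channel rows and 0.200% of all rows. They also stood above all FASD animals at 5 months, as in 1.54% of channel rows and 0.921% of all rows. In the other directions and comparisons no channel row lacked overlap, against 0.113% to 0.391% of all rows. Each channel share rests on KCNJ5 alone, so it says little about the class. The gaps were small: the lowest FASD animal at 2 years was at 5.48 and the highest control at 5.44. The difference from controls at 2 years was 0.19 (SE 0.07; unadjusted p = 0.0182, adjusted p = 0.793, limma), with p = 0.00433 in an exact permutation test (two-sided, smallest possible 0.00216). Between ages in FASD animals the difference was 0.18 (SE 0.08; unadjusted p = 0.0299, adjusted p = 0.664), and the exact permutation test gave its smallest possible p, 0.00794 (two-sided). The interaction was 0.24 (SE 0.11; unadjusted p = 0.0334) and its p was above 0.05, up to 0.0835, without FASD animal 3 or control animal 6 at 2 years, or without FASD animal 3 or control animal 2 or 3 at 5 months. The p of the difference at 2 years was 0.0569 without FASD animal 3, and that of the age difference in FASD animals 0.0821 without FASD animal 3 at 2 years and 0.117 without FASD animal 3 at 5 months. KCNJ6, the main brain partner of the same channel family, was between 9.54 and 10.49 in FASD animals and between 9.99 and 10.42 in controls at 2 years, and its interaction had an unadjusted p of 0.650.

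KCNK17, a 2-pore potassium channel opened by alkaline conditions, was high in FASD animals at 5 months. Its log2 intensity at 2 years was 6.22, 6.18, 6.15, 5.95 and 5.96 in FASD animals, against a lowest of 6.01, a median of 6.12 and a highest of 6.29 in controls. At 5 months it was 6.67, 6.36, 6.11, 6.30 and 6.42 in FASD animals, against a lowest of 6.01, a median of 6.13 and a highest of 6.26 in controls. At 5 months 4 of the 5 FASD animals were above every control, and FASD animal 2, whose myelin, microglial and mural cell markers were the highest of all arrays, was also the highest here. Markers of oligodendrocyte precursors moved with the group as a whole: the mean level of the 5 measured rows, relative to all arrays, was between 0.15 and 0.33 in the 5 FASD animals at 5 months, against between -0.14 and 0.08 in the controls, with no overlap. Of the 11 measured lists, each compared between exposures and between ages, this was the lone comparison without overlap. All 5 of these rows were higher in FASD at 5 months (median difference 0.239), but unevenly. They ran from CSPG4 (0.01, unadjusted p = 0.89, limma) to GPR17 (0.62, unadjusted p = 0.00899, adjusted p = 0.93, limma), the lone row under 0.05 before adjustment. At 2 years all 5 rows were also higher in FASD (median difference 0.129), with overlapping levels, whereas the KCNK17 difference at that age was -0.05. PDGFRA, a defining marker, was not analysed here. Of the 6 oligodendrocyte and myelin rows 5 were higher in FASD at 5 months (median 0.27). Their levels were between -0.01 and 0.59 in FASD animals and between -0.24 and 0.03 in controls. The part of these markers in the KCNK17 result, and in that of KCNJ1 at the same age, was not tested. The FASD minus control difference was -0.05 (SE 0.09) at 2 years and 0.24 (SE 0.09) at 5 months, with an interaction of -0.29 (SE 0.12; unadjusted p = 0.0297, limma). At 5 months an exact permutation test gave p = 0.0281 (two-sided). Without FASD animal 2 the difference at 5 months was 0.17 (unadjusted p = 0.0550) and the interaction -0.21 (unadjusted p = 0.0729). The interaction also had a p above 0.05 without control animal 1 or 2 or FASD animal 4 or 6 at 2 years, or control animal 3 at 5 months. Averaged over exposures the age difference was -0.14 (SE 0.06; unadjusted p = 0.0350), made up of -0.28 in FASD animals and 0.00 in controls, and its p was above 0.05 in 10 of the 22 fits with 1 array left out, up to 0.0857 without FASD animal 2 at 5 months.

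**Figure D4:**
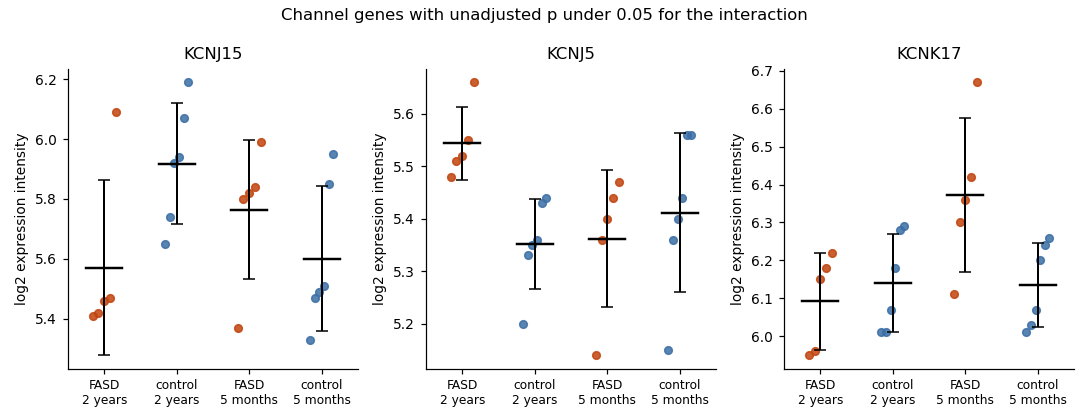
Log2 expression intensity of KCNJ15, KCNJ5 and KCNK17 in each animal (points) by group, with group means (bars) and SD (whiskers); n is 5 in each FASD group and 6 in each control group. At 2 years the FASD mean was lower for KCNJ15 (5.57 against 5.92) and higher for KCNJ5 (5.54 against 5.35), and at 5 months it was higher for KCNK17 (6.38 against 6.13).

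For the row of highest mean intensity in each role group, the 95% confidence interval gives the size of difference that the arrays leave possible. The neuronal sodium channel pore SCN2A averaged 11.14 ± 0.40 (SD, n = 5) in FASD animals and 11.33 ± 0.37 (SD, n = 6) in controls at 2 years, and its alcohol difference was -0.16 (95% confidence interval -0.47 to 0.16). The beta subunit SCN3B had an alcohol difference of 0.04 (-0.23 to 0.32). CACNA1B, the pore of the N-type calcium channel of presynaptic terminals, had 0.07 (-0.16 to 0.29), the auxiliary subunit CACNB3 0.04 (-0.12 to 0.20) and CACNG2, which traffics AMPA receptors, -0.01 (-0.22 to 0.21). Among potassium channels, the axonal KCNA2 had an alcohol difference of -0.08 (-0.30 to 0.14), the inward rectifier KCNJ2 0.00 (-0.09 to 0.08), the auxiliary KCNMB4 of the large-conductance channel 0.08 (-0.05 to 0.20) and the calcium-activated KCNN2 0.05 (-0.24 to 0.35). HCN3, the lone pacemaker channel gene measured, had 0.00 (-0.11 to 0.12). All of these intervals contain 0 and none of them reaches 0.5 in either direction. Both KCNAB2 rows had alcohol differences near 0, at -0.01 and 0.00.

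For age the same rows gave 0.19 (-0.12 to 0.51) for SCN2A, 0.20 (-0.07 to 0.48) for SCN3B, 0.15 (-0.08 to 0.37) for CACNA1B, -0.18 (-0.39 to 0.03) for CACNG2 and 0.26 (-0.04 to 0.56) for KCNN2. KCNA2 had an age difference of 0.01 (-0.21 to 0.23), KCNJ2 0.05 (-0.03 to 0.14) and HCN3 0.00 (-0.11 to 0.12). None of these reached an unadjusted p under 0.05, and those of SCN2A and KCNN2 extended past 0.5.

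**Figure D5:**
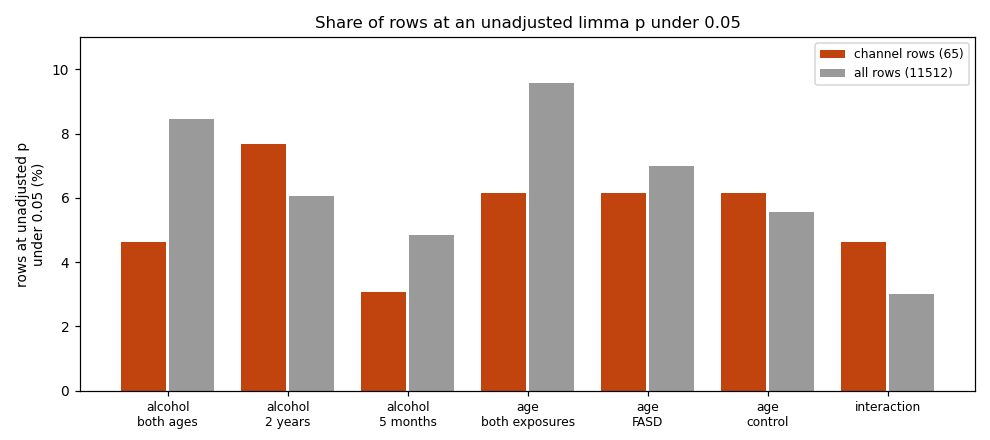
Percent of rows with an unadjusted limma p under 0.05 in each comparison, for the 65 channel rows and for all 11512 rows. The channel share was below that of all rows for alcohol over both ages (4.62% against 8.44%), alcohol at 5 months (3.08% against 4.83%), age over both exposures (6.15% against 9.57%) and age in FASD animals (6.15% against 6.99%), and above it for alcohol at 2 years (7.69% against 6.05%), age in controls (6.15% against 5.55%) and the interaction (4.62% against 3.00%), each share resting on 2 to 5 genes.

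These shares moved with single arrays. Without control animal 2 at 2 years the channel share was 15.4% for alcohol, against 14.6% of all rows in the same fit, and 15.4% for age, against 12.4% of all rows.

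Channel rows varied slightly more between animals than others. Their median residual SD was 0.183, against 0.158 for all rows, and it ran from 0.06 for SCN4A to 0.56 for KCNJ13. KCNJ13, named after its values were seen, is an inward rectifier known from the choroid plexus, the epithelium that makes cerebrospinal fluid and borders the hippocampus. Its log2 intensity at 2 years was 6.60, 6.52, 6.26, 6.07 and 7.16 in FASD animals, against a lowest of 6.23, a median of 6.71 and a highest of 7.13 in controls. At 5 months it was 6.73, 7.46, 6.83, 7.53 and 6.66 in FASD animals, and 6.68, 6.28, 6.57, 6.23, 6.59 and 8.50 in controls. The 3 highest were control animal 6 and FASD animals 5 and 3 at 5 months. The 2 measured choroid plexus markers, AQP1 and FOLR1, were on average 1.01, 0.29 and 0.63 above the mean of all arrays in the same 3 animals, and no other animal but FASD animal 4 at 5 months (0.37) was above 0.23. At 5 months FOLR1 varied more (SD 0.79 in FASD animals and 0.92 in controls) than AQP1 (0.23 and 0.20), so it weighed more in these averages. TTR, a defining marker of that epithelium, was not analysed here, and the part of choroid plexus in the KCNJ13 values was not tested. KCNJ13 had an age difference of -0.32 (SE 0.22; unadjusted p = 0.149). That of FOLR1 was -0.46 (unadjusted p = 0.0859, limma) and that of AQP1 was 0.04 (unadjusted p = 0.648, limma).

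Genes that work with these channels were read from 3 further lists. Of 27 rows of other channels (anoctamins, purinergic, ryanodine and similar channels), 3 were higher and 2 lower with alcohol at an unadjusted p under 0.05, with a median difference of 0.0377, while 2.43% of all rows were higher and 6.01% lower. They included SCNN1B, an epithelial sodium channel subunit (0.14, unadjusted p = 0.00807), and PKD2, a cation channel of cilia (-0.18, unadjusted p = 0.0104). The 2 rows of TRPA1, an irritant receptor, went opposite ways (0.15, unadjusted p = 0.00832, and -0.12, unadjusted p = 0.0311), so the gene has no settled direction. For age 6 of the 27 rows were higher and 0 lower, with a median of 0.0271, while 4.68% of all rows were higher and 4.89% lower. They included the chloride channel genes CLIC5 (0.18, unadjusted p = 0.00721) and BEST1 (0.29, unadjusted p = 0.0149). Of 32 rows of channel partners and trafficking genes, 1 was lower with alcohol, LGI1, which binds potassium channel complexes and is mutated in an inherited epilepsy (-0.17, unadjusted p = 0.0388), and 2 were higher with age, STAC, an adaptor of calcium channels (0.34, unadjusted p = 0.00305), and STK39, a kinase that controls chloride transporters (0.10, unadjusted p = 0.0314). The 5 rows of the ATPases that pump sodium, potassium and calcium had 0 at that threshold for either factor, with medians of -0.0203 for alcohol and 0.0297 for age. All adjusted p values in these lists were above 0.05.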

How the data were processed

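Per the labels and the study's methods, the authors hybridized hippocampal RNA of 24 animals to Affymetrix Rhesus Macaque arrays, normalized by robust multi-array average (RMA; version not given in the sources used here), dropped 2 outlying FASD arrays, whose columns held no values, and filtered probe sets by annotation and detection, with 1 set per gene. The deposited values are log2 expression intensities of 11512 rows and 22 arrays. They were used without further scaling. Platform annotation gave 1 symbol to 8730 rows, several to 88 and none to 2694, and KCNAB2 still had 2 rows.

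One control placed at 5 months by its title, description and age (animal 6) has a source name that says 2 years. Replicates are separate animals, and arrays were loaded on 1 day. Per the study's methods, dams lived in social groups with a single male. The same dam might receive ethanol in a breeding cycle and sucrose in the next, or the reverse. Animals may therefore share a sire or a dam, within or across groups. Parentage was not used here, and limma and the permutation tests treated the animals as independent. A mean per group was fitted with limma 3.58.1 in R 4.3.3 (empirical Bayes, Benjamini-Hochberg over all rows), tested on simulated data. The number of arrays limits the precision. The median standard error of the 65 rows was 0.0758 for alcohol and for age. Exact permutation tests of single genes (Python 3.11.15, numpy 2.4.6, unadjusted) moved animals within age or exposure. Array weights came from limma.

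The members were picked by gene symbol and by no measured value, but the rule and the gene lists were set with earlier results of these data known. Named with values were members at an unadjusted p under 0.05, the 5 of lowest p for alcohol and for age, and the row of highest mean in each of 12 role groups. Members named outside this rule (CACNG5, KCNQ5, KCNJ13, KCNJ6 and single comparators such as SCN1A, KCNIP2, KCNN1, KCNN3 and SCN4A) were chosen after their values were seen. Alternatives were robust variances with an intensity trend, the two-way analysis of variance that the methods name, centring, quantile normalization, array weights, rows with a mean above 7, 1 row per symbol, the replicate number as a block and each array left out. Leaving out the 3 arrays of weight under 0.5 was added after the data were seen. No sequences or coordinates of these genes were used here.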

Additional observations from a re-analysis of the deposited data

Results flagged for a closer look

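In 96 groups of values checked (24 genes in 4 groups), 6 had 1 animal far from the others of its group, where chance alone flags about 1 in 20 groups. FASD animal 2 at 5 months was set apart in TRPM7, at 6.25 with its nearest group member at 6.94, and in KCNJ1, at 4.87 with the nearest at 4.71. FASD animal 3 at 2 years was set apart in KCNJ15, at 6.09 with the nearest at 5.47. Control animal 2 at 2 years was set apart in SCN2A, at 10.65 with the nearest at 11.30, and control animal 6 at 2 years in CACNA1B, at 10.42 with the nearest at 11.15. Control animal 4 at 5 months was set apart in HCN3, at 6.12 with the nearest at 5.96.

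For 3 genes the FASD minus control difference at 2 years differed from that at 5 months at an unadjusted p under 0.05 in limma. The interaction was -0.52 for KCNJ15 (unadjusted p = 0.0141), -0.29 for KCNK17 (unadjusted p = 0.0297) and 0.24 for KCNJ5 (unadjusted p = 0.0334), and the adjusted p of each was near 1. The difference of the means had opposite signs at the 2 ages for each gene. It was -0.35 at 2 years and 0.16 at 5 months for KCNJ15, -0.05 and 0.24 for KCNK17, and 0.19 and -0.05 for KCNJ5. The smaller difference of each gene could not be told from 0, so a reversal is not shown. Exact permutation tests (two-sided) gave p = 0.255 for KCNJ15 at 5 months, 0.537 for KCNK17 at 2 years and 0.554 for KCNJ5 at 5 months.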

How the results depend on the processing

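Counts below are channel rows at an unadjusted p under 0.05, with the share of channel rows and that of all rows in the same fit. None of the 10 single-gene differences at that threshold for alcohol, age and the interaction changed sign in the 31 alternative fits that measured them. With array weights the count was 5 for alcohol (7.69%, all rows 14.5%), 10 for age (15.4%, all rows 14.1%), 5 for the interaction (7.69%, all rows 6.29%), 6 for alcohol at 5 months (9.23%, all rows 10.1%), 7 for age in FASD animals (10.8%, all rows 9.37%) and 10 for age in controls (15.4%, all rows 11.8%). Among the 35 rows with a mean above 7 it was 1 for alcohol (2.86%, all rows 8.10%), 0 for the interaction (all rows 2.72%), 1 for alcohol at 2 years (2.86%, all rows 5.52%), 0 for alcohol at 5 months (all rows 4.51%), 2 for age in FASD animals (5.71%, all rows 7.48%) and 2 for age in controls (5.71%, all rows 5.22%). TRPM7, KCNJ1, KCNJ5, KCNJ15, KCNK17, KCNQ5, CACNG5 and TRPM3 were not among these rows, and CACNG2 came in for age in controls. Without the 3 arrays of weight under 0.5 together (chosen after the data were seen: FASD animal 2 at each age and control animal 2 at 2 years) it was 7 for alcohol (10.8%, all rows 12.5%), 14 for age (21.5%, all rows 13.1%) and 12 for age in controls (18.5%, all rows 14.9%).

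With 1 array left out, the count ran from 2 to 10 for alcohol, 3 to 10 for age, 1 to 5 for the interaction, 2 to 11 for alcohol at 2 years, 1 to 4 for alcohol at 5 months, 3 to 9 for age in FASD animals and 1 to 11 for age in controls. Without control animal 2 at 2 years it was 10 for alcohol (15.4%, all rows 14.6%), 10 for age (15.4%, all rows 12.4%), 5 for the interaction (7.69%, all rows 6.56%), 11 for alcohol at 2 years (16.9%, all rows 14.5%) and 11 for age in controls (16.9%, all rows 11.7%). For age it was 8 without FASD animal 2 at 2 years (12.3%, all rows 10.5%) or FASD animal 6 at 5 months (12.3%, all rows 9.89%) and 7 without control animal 6 at 2 years (10.8%, all rows 10.6%), and for the interaction 1 without control animal 3 at 5 months (1.54%, all rows 2.41%). For alcohol at 2 years it was 2 without control animal 6 (3.08%, all rows 3.43%) and 3 without control animal 5 or FASD animal 2 or 3 of that age (4.62%, all rows 3.98% to 6.46%). For alcohol at 5 months it was 1 without control animal 1, 2 or 5 or FASD animal 2 or 5 of that age (1.54%, all rows 3.17% to 4.86%) and 4 without control animal 6 or FASD animal 4 (6.15%, all rows 5.88% and 7.29%). For age in FASD animals it was 9 without animal 4 at 5 months (13.8%, all rows 8.55%), 7 without animal 5 at 5 months (10.8%, all rows 6.71%) and 8 without animal 2 at 2 years (12.3%, all rows 8.77%). For age in controls it was 9 without animal 1 at 5 months (13.8%, all rows 6.91%) and 1 without animal 4 at 5 months (1.54%, all rows 4.75%). The cause of these shifts was not tested.

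The labels give no origin for the replicate numbers, and same-numbered animals did not all deviate together: 13 of 30 same-numbered pairs of different groups had a correlation of deviations over 0.1 (mean 0.0706), as had 38 of 151 other pairs (mean -0.0107). The 2 FASD animals numbered 2 correlated at 0.389. Such correlations were thus more frequent among same-numbered pairs, and these values do not settle whether the numbers pair animals. Per the study's methods, cases and controls matched by age were sacrificed in alternation, and the labels do not tie the numbers to that order. The main fit treated the animals as unpaired, and a fit with the number as a block was an alternative. With the replicate number as a block the count was 4 for alcohol (6.15%, all rows 8.64%), 6 for age (9.23%, all rows 10.4%), 3 for the interaction (4.62%, all rows 3.14%), 1 for alcohol at 5 months (1.54%, all rows 5.48%) and 7 for age in FASD animals (10.8%, all rows 7.51%), and the unadjusted p of the KCNJ5 interaction was 0.0502. After centring the arrays that interaction was 0.20 (unadjusted p = 0.0780). The age difference of KCNK17 had an unadjusted p of 0.0551 after centring, 0.0683 after quantile normalization and 0.0598 with array weights, and its interaction one of 0.0915 without the 3 arrays of lowest weight. TRPM7, KCNJ1, KCNK1, KCNJ10, KCNIP3 and KCNJ15 kept an unadjusted p under 0.05 in all fits that measured them.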
